A study of Drosophila melanogaster with 3 samples.

Results

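The recognition proteins and signalling components of the Toll and Imd pathways were examined in the lymph gland, the blood-forming organ of the Drosophila larva. The set of 33 genes comprises the peptidoglycan recognition proteins (PGRPs), the glucan-binding family GNBP1 to GNBP3, the Toll pathway downstream of its ligand Spatzle and the Imd pathway downstream of its adaptor. Members were chosen by gene symbol, and all 33 symbols were found among the 17490 genes of the files. Bulk RNA sequencing was performed on intact lymph glands of Oregon-R larvae, a wild-type laboratory strain, kept in steady state and dissected 72, 96 or 120 h after egg laying (AEL). No immune challenge was given, and each library was prepared from RNA of many pooled glands. There was 1 library at each time, so differences are between libraries, without a replicate check, and no test was made between times. The study's dissection kept the primary lobes and removed the dorsal vessel, ring gland and posterior lobes.

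In Drosophila, both pathways switch on antimicrobial genes through NF-kB factors. In the Toll pathway, secreted receptors bind bacterial or fungal cell wall material in the hemolymph and start a protease cascade, which cleaves Spatzle so that it can bind the receptor Toll. The adaptors Myd88 and Tube and the kinase Pelle then lead to loss of the inhibitor Cactus and release of Dorsal and Dif. In the Imd pathway, the receptors PGRP-LC and PGRP-LE bind peptidoglycan themselves and signal through Imd, Fadd, the caspase Dredd, the Tak1 kinase complex and the IKK complex to the factor Relish (Rel).

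Total counts were 49511614, 37922500 and 34278733 at 72, 96 and 120 h AEL. Levels are given as CPM, counts per 1000000 counts of the library after TMM scaling, and comparisons between genes as TPM, which also divides by exonic length. Of the counts from 1 to 20, 69.6%, 72.0% and 70.9% were even numbers at 72, 96 and 120 h AEL, so reads may have been counted in pairs. Intervals below are 95% Poisson intervals and cover counting error only. Those of ratios between genes were taken on halved counts, and those of fold changes on full counts are then too narrow. Hemocyte markers were abundant in each library. The 6 plasmatocyte markers summed to 10408, 23414 and 22542 CPM, the 4 crystal cell markers to 673, 13392 and 16600.1 CPM and the 4 prohemocyte markers to 17912, 17855 and 20020.2 CPM. Markers of tissues next to the gland were also found. The 9 muscle and dorsal vessel markers summed to 4760.5, 425 and 283 CPM, the 7 neuron markers to 155, 43.5 and 50.0 CPM, the 6 ring gland markers to 825, 288 and 123 CPM, and the 6 fat body markers to 141, 297 and 447 CPM. Of 10 midgut markers, 3, 10 and 8 had no more than 3 counts, and their sum was 104, 0.0267 and 0.754 CPM. Most of the sum at 72 h AEL came from Jon65Aiii, with 89.1 CPM, and CG12057, with 12.7 CPM. In bulk samples, fewer cells of a type and less RNA per cell cannot be told apart.

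The members of each signalling chain, from spz onward for Toll and from imd onward for Imd, reached 1 CPM at all times. Of the 33 genes, 26 reached 1 CPM in at least 1 library, and these 26 reached it in each of the 3. The other 7 were recognition genes of the PGRP family, with at most 28 counts in any library. All 17 genes of the Toll and Imd chains, from spz to pirk, were among the 26. The median level of the 26 members was 29.9, 32.8 and 35.4 TPM, beside 19.9, 20.4 and 20.6 TPM over all 9056 genes that reached 1 CPM.

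Spatzle stood well above the rest. The gene spz, which encodes the Toll ligand, had 227, 468 and 362 TPM and was the most abundant member at each time, at percentiles 93.7, 96.9 and 96.2 of the 9056 genes. Its receptor gene Tl had 95.3, 105 and 83.6 TPM. The inhibitor gene cact had 80.6, 97.5 and 86.7 TPM, Rel had 66.6, 72.6 and 72.9 TPM and PGRP-LC had 59.7, 90.4 and 96.2 TPM. These 5 genes filled the first 5 places in each library, and the IKK subunit key (kenny) came next with 52.8, 62.4 and 68.5 TPM. The 8 Toll pathway genes took 53.0%, 57.5% and 52.4% of the summed TPM of the members, and the 9 Imd pathway genes took 28.3%, 24.4% and 26.7%.

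**Figure D1:**
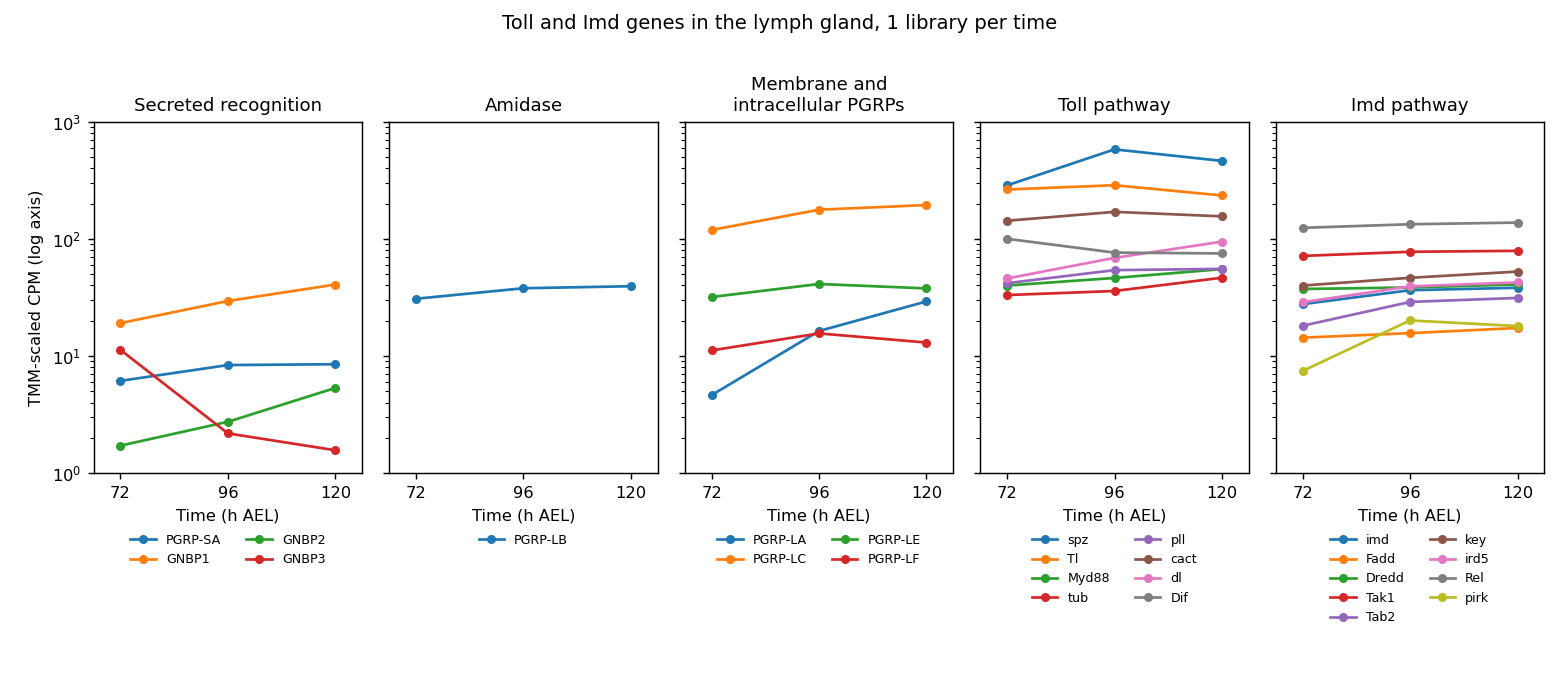
Levels of the 26 members that reached 1 CPM, in TMM-scaled CPM on a log axis, at 72, 96 and 120 h AEL, in 5 panels by role. Each point is 1 library, so there are no error bars. Most lines are close to level, while GNBP3 slopes down (11.3, 2.19 and 1.57 CPM) and PGRP-LA slopes up (4.63, 16.3 and 29.2 CPM).

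Changes between libraries were counted with fixed thresholds on the log2 ratio of CPM plus 1. At 96 against 72 h AEL, 3 of the 26 members (PGRP-LA, pirk and spz) were at least 2-fold higher, beside 4.76% of the 9056 genes, and 1 (GNBP3) was at least 2-fold lower, beside 19.5%. None was 4-fold higher or lower, where all genes gave 1.2% and 8.62%. At 120 against 96 h AEL, no member reached 2-fold in either direction, and 1.47% of all genes were higher and 1.12% lower. The 4-fold shares in that comparison were 0.188% and 0.0663%. At 120 against 72 h AEL, 5 members (PGRP-LA, GNBP2, pirk, GNBP1 and dl) were at least 2-fold higher, beside 7.39% of all genes, and 1 (GNBP3) at least 2-fold lower, beside 20.7%. With the 4-fold threshold, PGRP-LA was higher, beside 2.11%, and GNBP3 lower, beside 9.68%.

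Members under 2-fold numbered 22, 26 and 20 of 26 in these comparisons (84.6%, 100% and 76.9%), near the 75.7%, 97.4% and 71.9% of all genes. The median log2 ratio of the 26 members was 0.36 at 96 against 72, 0.06 at 120 against 96 and 0.41 at 120 against 72 h AEL. Over all 9056 genes the medians were -0.02, 0 and -0.04. At 120 against 72 h AEL, 23 of the 26 members had a ratio above 0, which was so for 47.4% of all genes. The exceptions were GNBP3, Dif and Tl. Scaling by total counts lowered the median of all genes in this comparison to -0.15 and that of the members to 0.30, and spz at 96 h AEL and dl and GNBP1 at 120 h AEL then fell short of 2-fold.

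**Figure D2:**
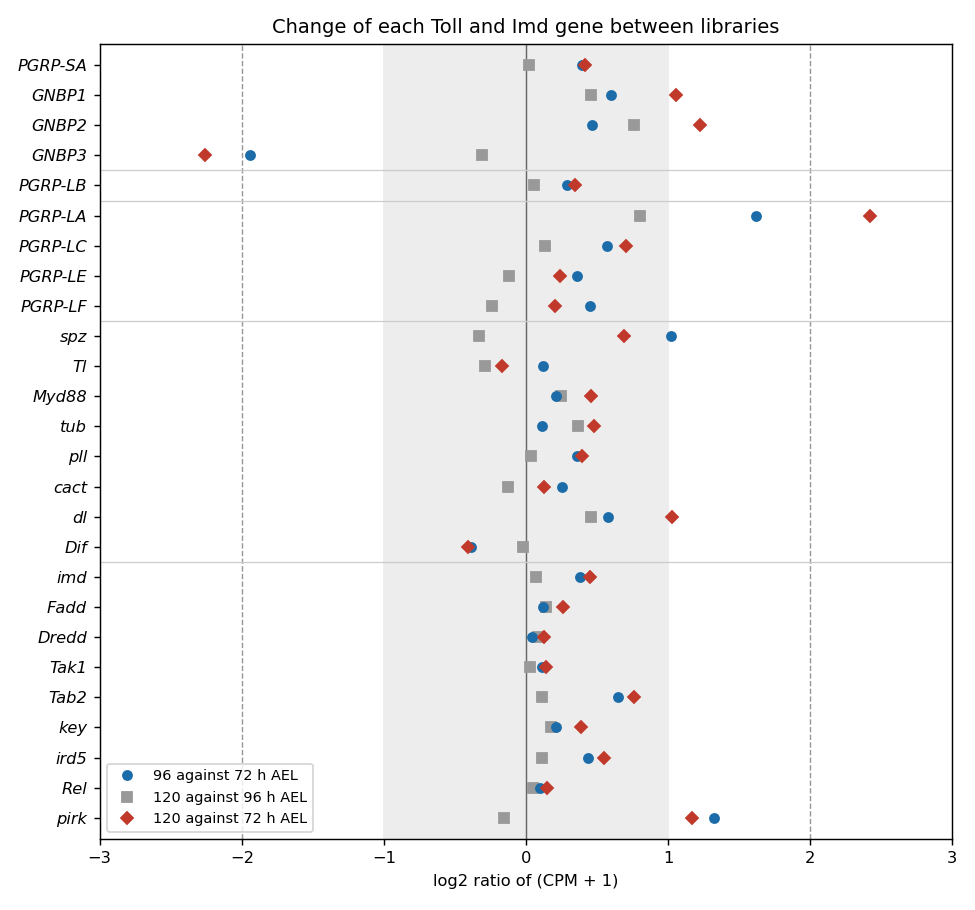
The log2 ratio of CPM plus 1 for each of the 26 members in the 3 comparisons, with genes grouped by role from top to bottom as secreted recognition, amidase, other PGRPs, Toll pathway and Imd pathway. The shaded band is under 2-fold and the dashed lines mark 4-fold. For 120 against 72 h AEL, GNBP3 lies at -2.26 and PGRP-LA at 2.42, outside the dashed lines, and 20 of the 26 genes (76.9%) lie inside the band, beside 71.9% of all genes.

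Among the secreted recognition genes, GNBP3 went down and its relatives GNBP1 and GNBP2 went up. GNBP3 binds fungal glucan and GNBP1 works with PGRP-SA in the recognition of Gram-positive bacteria. GNBP3 had 584, 82 and 52 counts, or 11.3, 2.19 and 1.57 CPM, and was 7.19-fold lower at 120 h AEL relative to 72 h AEL (interval 5.41 to 9.74). Most of that fall was present at 96 h AEL, when it was 5.16-fold lower than at 72 h AEL (interval 4.09 to 6.58). Its log2 ratio of -1.95 then missed the 4-fold threshold, since adding 1 CPM shrinks the ratio of a low gene.

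GNBP1 had 989, 1106 and 1351 counts, or 19.1, 29.5 and 40.8 CPM, and was 2.13-fold higher at 120 h AEL relative to 72 h AEL (interval 1.97 to 2.32). GNBP2 had 1.72, 2.75 and 5.34 CPM, and was 3.11-fold higher (interval 2.40 to 4.06). By counts of 89, 103 and 177, GNBP2 was highest in the library of 120 h AEL. These divergent genes are neighbours on chromosome 3L, with GNBP2 at chr3L:18673474-18675413 and GNBP1 at chr3L:18675800-18677876, 386 bases apart. PGRP-SA, the partner of GNBP1, had 6.14, 8.37 and 8.51 CPM and a log2 ratio of 0.41 at 120 against 72 h AEL, under 2-fold. PGRP-SD, also a secreted sensor, had 17, 3 and 2 counts, and 35 bases of its exons are shared with CG7492 on the opposite strand, which had 1347, 1093 and 1065 counts.

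The fall of GNBP3 coincided with that of the other tissues. The sums of the muscle and dorsal vessel, neuron, ring gland and midgut markers were likewise highest at 72 h AEL, whereas the fat body markers were lowest then. Markers of the niche, a group of cells within the gland, were also highest at 72 h AEL. The 4 niche markers summed to 98.9, 56.4 and 64.1 CPM. At 96 against 72 h AEL, all 9 muscle and dorsal vessel markers were at least 2-fold lower, as were 6 of 7 neuron markers. That held for 19.5% of all genes, and brp was the one neuron marker at 0, at 96 h AEL. The part of such tissues or of niche cells in the GNBP3 signal was not tested.

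The amidase PGRPs cut peptidoglycan and so lower the amount that can reach the receptors. Of 6 such genes, PGRP-LB was the one that reached 1 CPM, with 1596, 1421 and 1306 counts, or 30.8, 37.9 and 39.4 CPM, and a log2 ratio of 0.34 at 120 against 72 h AEL. PGRP-SB1 had 28, 16 and 12 counts and PGRP-SC2 had 10, 2 and 4. PGRP-SC1a had 6 counts at 72 h AEL and 0 at the later times. PGRP-SC1b and PGRP-SB2 had 0 counts in all 3 libraries, which allows a level of up to 0.0579, 0.0800 and 0.0905 CPM at 72, 96 and 120 h AEL if 3 counts are taken as the limit, by counting error only. PGRP-SC1a and PGRP-SC1b are close copies of each other, so their counts are uncertain.

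The Imd receptor genes were expressed throughout, and the largest rise of any member was that of PGRP-LA. PGRP-LC, the main membrane receptor of the pathway, had 119, 177 and 194 CPM and was 1.63-fold higher at 120 h AEL relative to 72 h AEL (interval 1.58 to 1.69), under the threshold. PGRP-LE, an intracellular sensor, had 31.9, 41.2 and 37.8 CPM. PGRP-LA, a positive regulator of Imd signalling in barrier epithelia, had 240, 613 and 969 counts, or 4.63, 16.3 and 29.2 CPM. Its level was 3.53-fold higher at 96 h AEL relative to 72 h AEL (interval 3.03 to 4.11) and 1.79-fold higher at 120 h AEL relative to 96 h AEL (interval 1.62 to 1.98), which makes 6.31-fold between 72 and 120 h AEL (interval 5.47 to 7.30). With a pseudocount of 5 CPM its log2 ratio was 1.83, short of 4-fold, as was that of GNBP3 at -1.31.

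PGRP-LF, which lacks the capacity to signal and dampens PGRP-LC, had 11.2, 15.6 and 13.0 CPM. Its exons share 602 bases, 44.4% of their length, with UGP on the opposite strand. UGP had 3272, 2977 and 2923 counts, and how the counting used strand is not given in the sources used here, so the level of PGRP-LF is uncertain. PGRP-LD had 6, 10 and 5 counts, and 90.0% of its exonic bases are shared with Pmi on the same strand. Pmi had 1, 0 and 0 counts, so the level of PGRP-LD is uncertain as well.

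The genes PGRP-LA, PGRP-LC and PGRP-LF lie side by side on chromosome 3L on the same strand, at chr3L:9334332-9338336, chr3L:9338810-9348336 and chr3L:9349609-9351489. Gaps of 473 and 1272 bases separate them. Despite this, their log2 ratios at 120 against 72 h AEL were 2.42, 0.70 and 0.21. PGRP-LA transcripts were 0.0695 of PGRP-LC transcripts by TPM at 72 h AEL (interval 0.0574 to 0.0834), 0.165 at 96 h AEL (interval 0.146 to 0.185) and 0.269 at 120 h AEL (interval 0.244 to 0.296). For PGRP-LF that ratio was 0.259, 0.243 and 0.185.

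In the Toll pathway, the ligand gene spz and the transcription factor gene dl passed 2-fold, both by a small margin, and the middle of the chain did not. The ligand gene spz had 14808, 21774 and 15328 counts, or 286, 581 and 463 CPM. It was 2.03-fold higher at 96 h AEL relative to 72 h AEL (interval 1.99 to 2.07), but its log2 ratio of 1.02 was 0.99 with DESeq2 size factors and 0.94 with total-count scaling, short of the threshold. The 120 h AEL library lay between the other two. Tl had 264, 287 and 235 CPM, so spz exceeded Tl by 2.38 times in TPM at 72 h AEL (interval 2.31 to 2.46), 4.45 times at 96 h AEL (interval 4.31 to 4.60) and 4.34 times at 120 h AEL (interval 4.17 to 4.51). The adaptor genes Myd88 and tub had 40.0, 46.4 and 55.2 CPM and 33.1, 35.9 and 46.6 CPM, and the kinase gene pll had 41.9, 54.1 and 55.4 CPM. Their log2 ratios at 120 against 72 h AEL were between 0.40 and 0.48.

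The NF-kB genes of this pathway, dl and Dif, had ratios of opposite sign. The gene dl (dorsal), which also patterns the dorsoventral axis of the embryo, had 2377, 2581 and 3138 counts, or 45.9, 68.8 and 94.7 CPM, and was 2.06-fold higher at 120 h AEL relative to 72 h AEL (interval 1.96 to 2.18). Dif, which like dl encodes a factor of the immune response, had 5185, 2863 and 2488 counts, or 100.1, 76.3 and 75.1 CPM. Its log2 ratio of -0.41 was under the threshold. Per transcript length, dl was 0.406 of Dif at 72 h AEL (interval 0.379 to 0.435), 0.798 at 96 h AEL (interval 0.740 to 0.861) and 1.12 at 120 h AEL (interval 1.04 to 1.20). The more abundant of the pair was thus Dif at 72 and 96 h AEL and dl at 120 h AEL. These genes lie on chromosome 2L at chr2L:17436830-17450364 (dl) and chr2L:17413248-17433161 (Dif), with 3668 bases between them.

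The level of cact, which encodes the inhibitor of both factors, was steady at 143, 170.0 and 156 CPM. The summed TPM of dl and Dif was 0.576, 0.471 and 0.596 of that of cact.

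**Figure D3:**
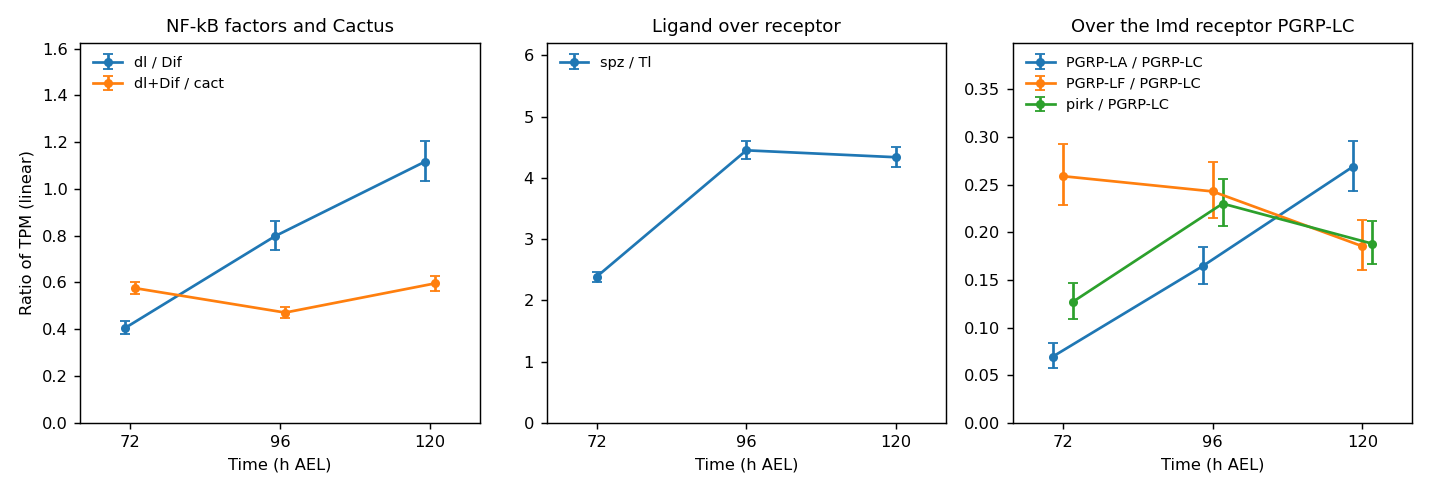
Ratios of TPM between members at 72, 96 and 120 h AEL, on linear axes from 0. Bars are 95% Poisson intervals on halved counts and cover counting error only. The ratio of dl to Dif is 0.406, 0.798 and 1.12 in order of time, that of spz to Tl is 2.38, 4.45 and 4.34, and that of PGRP-LA to PGRP-LC is 0.0695, 0.165 and 0.269.

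In the Imd chain, the inhibitor gene pirk was the one member to pass 2-fold. The gene imd, encoding the adaptor, had 27.7, 36.4 and 38.3 CPM. Its partner Fadd had 14.3, 15.7 and 17.4 CPM, and the caspase gene Dredd, whose product cleaves Imd and Relish, had 37.3, 38.4 and 40.8 CPM. The kinase gene Tak1 had 71.5, 77.6 and 79.0 CPM, and its binding partner Tab2 had 18.1, 29.0 and 31.3 CPM. The IKK genes key and ird5 had 39.9, 46.5 and 52.6 CPM and 28.8, 39.3 and 42.5 CPM, and Rel had 124, 133 and 138 CPM. At 120 against 72 h AEL these 8 genes had log2 ratios between 0.13 (Dredd) and 0.76 (Tab2).

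The gene pirk, whose product disrupts the complex of PGRP-LC with Imd, had 386, 755 and 597 counts, or 7.45, 20.1 and 18.02 CPM. It was 2.70-fold higher at 96 h AEL relative to 72 h AEL (interval 2.39 to 3.06) and 2.42-fold higher at 120 h AEL relative to 72 h AEL (interval 2.12 to 2.75). Relative to PGRP-LC by TPM, pirk was 0.127 at 72 h AEL (interval 0.109 to 0.147), 0.230 at 96 h AEL (interval 0.206 to 0.256) and 0.188 at 120 h AEL (interval 0.166 to 0.212). The intervals at 96 and 120 h AEL overlap, and both lie above that at 72 h AEL.

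Markers of several cell types also rose between 72 and 120 h AEL. All 4 crystal cell markers and 4 of 6 plasmatocyte markers were at least 4-fold higher at 120 h AEL relative to 72 h AEL. That held for 2.11% of all genes, and none of these markers was at 0 in any library. Of 3 lamellocyte markers, with 221, 374 and 482 CPM in sum, 2 were at least 2-fold higher, and so were 5 of 6 fat body markers. At that threshold, 7.39% of all genes were higher. Most of the lamellocyte sum was mys, with 214, 365 and 465 CPM. The marker by which the study defined lamellocytes, atilla, had 6.60, 3.73 and 7.79 CPM. Its log2 ratio at 120 against 72 h AEL was 0.21, under 2-fold. The part of these cell types in the rises of PGRP-LA, pirk, spz, dl, GNBP1 and GNBP2 was not tested.

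Genes that act before and after the members in these pathways were then compared. Upstream of Spatzle, the list of 11 genes of the protease cascade, with the serpin gene necrotic (nec), summed highest at 72 h AEL. Its summed level was 55.2, 9.31 and 9.26 CPM. Of 8 genes that passed the filter, 6 did not reach 1 CPM in each library and passed through the earlier libraries, where they were high, so no count over the 8 is given. The proteases that reached 1 CPM in each library were modSP, with 491, 151 and 164 counts, and grass, with 303, 66 and 97 counts. Their log2 ratios were -1.06 and -1.31 at 96 against 72 h AEL, past 2-fold, and -0.82 and -0.80 at 120 against 72 h AEL, under it. The gene nec is 1 of the 6 that passed through the earlier libraries, so its fall is not independent of the filter. It had 600, 48 and 16 counts and was 24.0-fold lower at 120 h AEL relative to 72 h AEL (interval 14.7 to 42.3). The protease genes psh (persephone), with 352, 16 and 2 counts, and spirit, with 472, 0 and 8 counts, were picked with their values in view, as were modSP and grass.

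Among 11 relatives of Toll and Spatzle, 3 receptor genes reached 1 CPM in each library, and 6 others passed the filter through the library of 72 h AEL alone. Over the 3 libraries together Tollo had the most counts, with 10.4, 20.1 and 21.4 CPM and a log2 ratio of 0.98 at 120 against 72 h AEL, under 2-fold. The others, 18w with 15.3, 6.56 and 3.08 CPM and Toll-7 with 13.7, 7.04 and 4.10 CPM, were at least 2-fold lower in that comparison. The ligand gene spz6, picked like 18w and Toll-7 with its values in view, had 364, 4 and 2 counts. As for GNBP3, markers of muscle, neurons, ring gland, midgut and niche were highest at 72 h AEL, and their part in these values was not tested.

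Regulators inside the cell were next compared, where 71.9% of all genes were under 2-fold. All 13 tested Imd regulators were under 2-fold at 120 against 72 h AEL, with log2 ratios between 0.05 and 0.71 and a median of 0.33. The ubiquitin-conjugating enzyme gene eff (effete) had the most counts of that list, at 539, 764 and 658 CPM. Of 7 tested Toll intracellular regulators 6 were under 2-fold and 1 was higher. That gene was Pli, encoding the Pelle-binding protein Pellino, with 1035, 1799 and 1803 counts, chosen after its values were seen, and it was 2.72-fold higher at 120 h AEL relative to 72 h AEL (interval 2.52 to 2.94).

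Of the antimicrobial peptide genes, the outputs of both pathways, most had few counts and Dro (drosocin) rose. Of 17 genes, 10, 8 and 5 had no more than 3 counts at 72, 96 and 120 h AEL, and the list summed to 2.55, 21.6 and 50.7 CPM. Of the 4 that passed the filter, 3 were under 1 CPM at 72 h AEL before scaling and passed through the later libraries, where they were high. The remaining gene, Dro, lay close to the filter threshold at 72 h AEL and was far above it later. Its rise is therefore not free of the same limit. Dro carried most of the sum at 96 and 120 h AEL, with 50, 467 and 1103 counts at 72, 96 and 120 h AEL, or 0.966, 12.5 and 33.3 CPM, and was 34.5-fold higher at 120 h AEL relative to 72 h AEL (interval 26.0 to 46.7). Per length it had 2.40, 31.5 and 81.8 TPM, beside a median of 19.9, 20.4 and 20.6 TPM over all genes. The fat body is known as the main source of these peptides. In that comparison 5 of 6 fat body markers were at least 2-fold higher, beside 7.39% of all genes. Their sum was 141, 297 and 447 CPM, and Fbp2 and Lsp2 were at 0 at 72 h AEL. The part of fat body in the rise was not tested. Rel, whose product activates such genes, had a log2 ratio of 0.15 in the same comparison.

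**Figure D4:**
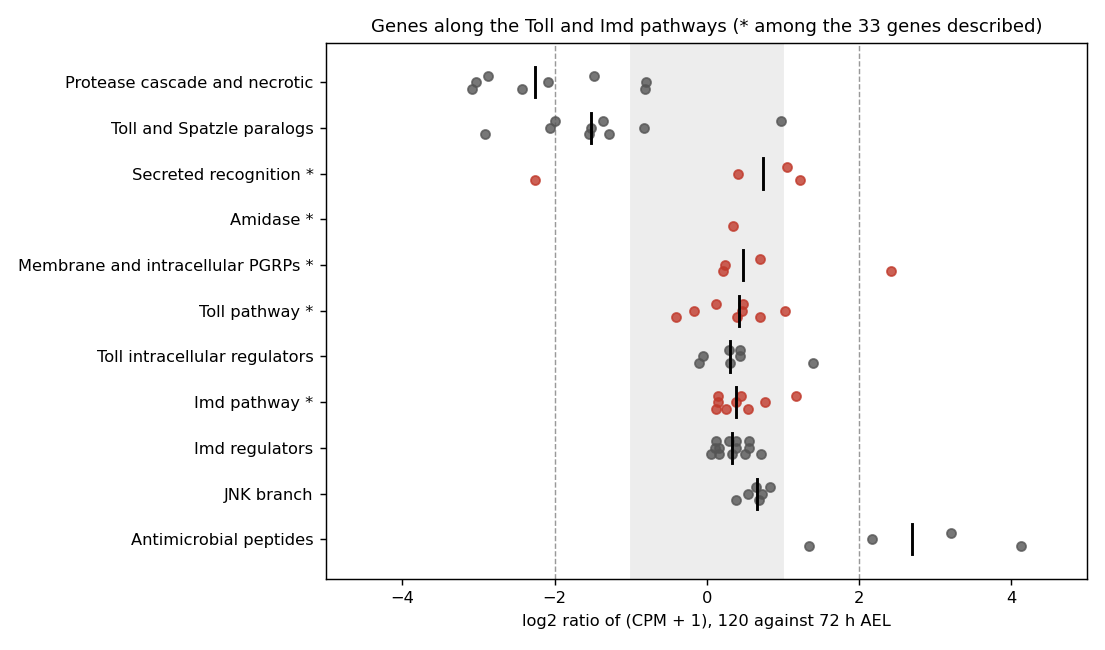
The log2 ratio of CPM plus 1 at 120 against 72 h AEL for genes along the pathways. Each point is 1 gene that reached 1 CPM in at least 1 library, red for the 26 of the 33 genes described and grey for other lists, black bars are medians and the shaded band is under 2-fold. Imd regulators lie between 0.05 and 0.71. Of the 13 shown, nub did not reach 1 CPM in each library. The same held for 6 of 8 cascade genes, 6 of 9 Toll and Spatzle paralogs and 3 of 4 antimicrobial peptide genes. These genes passed the filter where they were high, which bears on the medians of their lists.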

How the data were processed

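Total RNA from pooled, undissociated lymph glands was sequenced, with 1 library each at 72, 96 and 120 h AEL, and samples were grouped by the time in their labels. The authors deposited raw read counts per gene. The submitters' processing notes name FastQC 0.11.8, STAR 2.5.3a, featureCounts 1.6.0 and BDGP6. Annotation release, strand setting and handling of read pairs are not given in the sources used here.

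Counts were scaled with TMM in edgeR 4.0.16 (R 4.3.3), with factors of 1.05, 0.989 and 0.967, and given as CPM. A gene was kept if its unscaled CPM was 1 or more in any library (9056 of 17490 genes). Log2 ratios were taken with a pseudocount of 1 CPM and called at 2-fold and 4-fold. A count of 0 was bounded by 3 counts. TPM used exonic lengths of Ensembl 115 (BDGP6.54), which matched 17216 of 17490 identifiers, and positions and overlaps come from that annotation. Scripts were tested on simulated data (Python 3.11.15, SciPy 1.17.1, Matplotlib 3.10.9). Alternatives were total-count scaling, DESeq2 1.42.0 size factors, other pseudocounts and filters, halved counts and thinning.

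The members and all gene lists were chosen with earlier results of these data known. Members with 10 CPM in a library were given their values. Of other lists, the gene with the most counts and up to 3 genes past 4-fold with 10 CPM could be named. Some genes named here, such as nub, psh, spirit, spz6, grass and Pli, fell outside that rule and were picked with their values in view. Of the listed symbols, 6 matched no gene and were not analysed here.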

Additional observations from a re-analysis of the deposited data

How the results depend on the processing

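All alternatives were run, and none changed the sign of a ratio past 2-fold among the 24 named members. Of 504 values from their 72 ratios, 469 stayed within the counting interval of the reported ratio and 35 moved beyond it. The 469 include the values from other filters, which cannot change the ratio of a single gene and so stayed by construction. The sign of 2 ratios near 0 (Dredd at 96 against 72 and Tak1 at 120 against 96 h AEL) depended on the setting. The 2-fold call of spz at 96 against 72 h AEL was lost with total-count scaling (0.94), with DESeq2 size factors (0.99) and when the whole interval on halved counts had to pass. At 96 against 72 h AEL, total-count scaling and a pseudocount of 0.1 CPM each gave 1 member at least 4-fold lower (GNBP3), and the median without a filter was 0.21. At 120 against 72 h AEL, raising the pseudocount to 5 CPM gave 0 members 4-fold higher, 0 members 4-fold lower and 1 member 2-fold higher (PGRP-LA). Total-count scaling gave 3 members 2-fold higher and a median of 0.30, halved counts with the whole interval past the threshold gave 3, and in both these were PGRP-LA, GNBP2 and pirk. Without a filter the median was 0.26. Beyond the construction of each setting, the cause was not tested. No paired analysis was possible because each time has 1 library. The 7 members under 1 CPM had few counts, and their changes were not called. Exonic bases shared with Pmi are a further limit for PGRP-LD. For PGRP-SC1a and PGRP-SC1b a further limit is that they are close copies.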

Other observations

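The JNK branch, which splits from the Imd pathway at the Tak1 kinase, was expressed throughout. All 6 genes were under 2-fold at 120 against 72 h AEL, beside 71.9% of all genes. Their log2 ratios were between 0.38 and 0.83, with a median of 0.66. The most abundant by counts was kay, encoding the Fos subunit of AP-1, with 180, 228 and 281 CPM at 72, 96 and 120 h AEL. The kinase gene hep had 71.1, 117 and 127 CPM, and puc, a JNK phosphatase and target gene of the pathway, had 37.8, 61.9 and 63.2 CPM. The genes hep and puc were chosen after their values were seen.

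Among the tested regulators of Imd, nub was the one to pass 2-fold in any comparison, and at 96 against 72 h AEL it did so by a small margin. It encodes a POU factor that represses Relish targets in the gut, and it had 52, 0 and 64 counts. The library of 96 h AEL stands apart for this gene, and a count of 0 there allows a level of up to 0.0800 CPM. The gene passed the filter through the libraries of 72 and 120 h AEL, where it was higher. Its low value at 96 h AEL and its 2-fold calls are therefore not independent of the filter. The gene nub was also chosen after its values were seen.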
